A study of Mus musculus with 7 samples.

Results

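Hes, Hey and Id proteins are helix-loop-helix factors, grouped here as repressors that hold back the transcription factor Atoh1, the switch for hair cell fate in the inner ear. Hes6 is an exception, as described below. The 10 genes described here are Hes1, Hes5, Hes6, Hey1, Hey2, Heyl, Id1, Id2, Id3 and Id4. They were taken by name from mouse gene tables of 48709 genes, and all 10 were found and passed the filter on low counts. The tables come from supporting cells, the non-sensory cells around the hair cells, of cochleae taken from mice at postnatal day 1 and cultured as whole organs for 48 h. The cultures received 200 nM trichostatin A (TSA), which blocks histone deacetylases (2 libraries), or 10 µM GSK-343, which blocks the Polycomb methyltransferase EZH2 (3 libraries), or the solvent DMSO in equal amount (2 libraries). Medium with EGF and FGF was common to all 3 groups, and GFP-positive cells were sorted before RNA was extracted. The gene that drives GFP, the mouse strain, and whether replicates were separate cultures or pooled animals are not given in the labels, so a p-value here reflects only library-to-library spread, which may be technical.

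As background, hair cells carry Notch ligands, and the supporting cells beside them carry Notch receptors. A receptor that binds ligand is cut by γ-secretase, and its freed intracellular domain joins the DNA-binding protein RBPJ to switch on Hes and Hey genes. Hes1, Hes5 and the 3 Hey proteins bind DNA and repress targets, among them Atoh1. Hes6 differs: it binds Hes1 and weakens its repression, and is often found in differentiating rather than progenitor cells. Id genes are classic targets of BMP receptors and their Smad proteins. Id proteins lack a DNA-binding region and tie up the E proteins (Tcf3, Tcf4, Tcf12) that Atoh1 needs as partners.

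The stretches upstream of Hes5 and Hey2 are shown because both genes are Notch targets with letters of the RBPJ type in these bases, and Hes5 passed the test in 2 of the comparisons below while Hey2 passed in none. Each line gives the 250 bases before the gene's start in RefSeq (GRCm38), 5′ to 3′ on the gene's strand, and the capitals mark GTGGGAA or its reverse complement.
Hes5, chr4:154960673-154960922, plus strand: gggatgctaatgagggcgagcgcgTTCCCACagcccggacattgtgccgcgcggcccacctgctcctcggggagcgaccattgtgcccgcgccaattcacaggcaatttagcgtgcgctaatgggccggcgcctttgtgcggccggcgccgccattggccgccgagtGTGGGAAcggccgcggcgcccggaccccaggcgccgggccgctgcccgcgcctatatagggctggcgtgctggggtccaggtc
Hey2, chr10:30842784-30843033, minus strand: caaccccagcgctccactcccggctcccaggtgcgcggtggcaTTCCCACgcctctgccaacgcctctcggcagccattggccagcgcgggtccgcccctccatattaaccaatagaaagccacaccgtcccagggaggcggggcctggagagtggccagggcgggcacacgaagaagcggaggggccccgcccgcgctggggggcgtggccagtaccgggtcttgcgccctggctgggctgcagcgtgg
In Hes5 the motif stood at positions −226 to −220 relative to the start on the opposite strand and at −83 to −77 on the gene's own strand. Hey2 had 1 match, at −207 to −201, on the opposite strand. Both strands were searched in 32851 mouse promoters of the same length, of which 5.42% held GTGGGAA and 0.161% held it at 2 or more places. Sequences were matched for 6 of the 10 genes (not Hes1, Hey1, Heyl and Id1), and Hes6 (2 starts), Id2, Id3 and Id4 held no match in this window. The E-box CACGTG, a site type that Hey proteins bind, was in none of these 6 genes and in 6.02% of all promoters. GGCGCC, letters found at BMP-responsive GC-rich sites, occurred 4 times in Hes5 and once each in Id2 and Id4. Of all promoters, 9.59% had at least 1 and 1.43% had 2 or more. The promoters were not matched for G and C, which made up 71.6% of the Hes5 stretch, 62.8% of Id2 and 75.6% of Id4. CACNAG, the N-box type of site that Hes proteins bind, occurred in Hes6 and Id4, against 36.7% of all promoters. A match describes letters and not binding.

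The total expected count was 2724381 and 2963228 with TSA, 3398893 to 4248336 with GSK-343, and 5974230 and 5124247 with DMSO. The DMSO libraries were quantified in another read layout: gene length exceeded effective length by a median of 208.21 to 212.69 bases in the 5 inhibitor libraries and by 49 bases in DMSO. The share of counts from nuclear protein-coding genes was lowest for the DMSO libraries (62.5% and 63.4%). TSA libraries had 85.4% and 78.2%, below every GSK-343 library (86.3% to 93.4%). The mitochondrial gene mt-Rnr2 took 10.3% and 18.0% of TSA counts, above every GSK-343 library (3.45% to 8.54%). Its share of DMSO counts was 15.8% and 12.5%. In every comparison with DMSO, layout and treatment cannot be told apart. TSA and GSK-343 shared a layout, so their comparison is given first, although the shares of counts above differed between them. All 8 supporting cell markers examined (Sox2, Prox1, Sox9, Jag1, Fgfr3, Lfng, Sox10 and Gjb2) had counts above 0 in every library. The 3 comparisons also share libraries, so a member's values in them are not independent.

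Levels between genes are compared in TPM (transcript share scaled to a fixed sum), a measure per length. With TSA, Hes5 was highest at 618 and 485 TPM, followed by Id1 at 552 and 283 TPM and Id2 at 313 and 326 TPM. With GSK-343, Hes5 was again highest at 1202, 1275 and 856 TPM, and Id1 followed at 1098, 575 and 601 TPM. In DMSO, Hey1 was highest at 503 and 349 TPM, and Hes5 was second at 331 and 248 TPM. Hes5 is the Hes gene most tied to Notch activity in supporting cells, and Hey1 is a Hey gene that supporting cells keep after birth. Hes5 and Id1 overlapped in both inhibitor groups, whereas Hey1 and Hes5 did not overlap in DMSO. Among neighbours in the order of mean TPM, 1 of 9 pairs was free of overlap with TSA (Id2 above Hey1), 4 of 9 with GSK-343 and 4 of 9 in DMSO. Hes1 and Hes6 were the lowest pair in both inhibitor groups, and in DMSO Hes6 was lowest. Even so, Hes6 in DMSO, at 7.08 and 13.4 TPM, stood above 84.9% of all genes in the table, and Hes5 with GSK-343 stood above 99.8%.

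**Figure D1:**
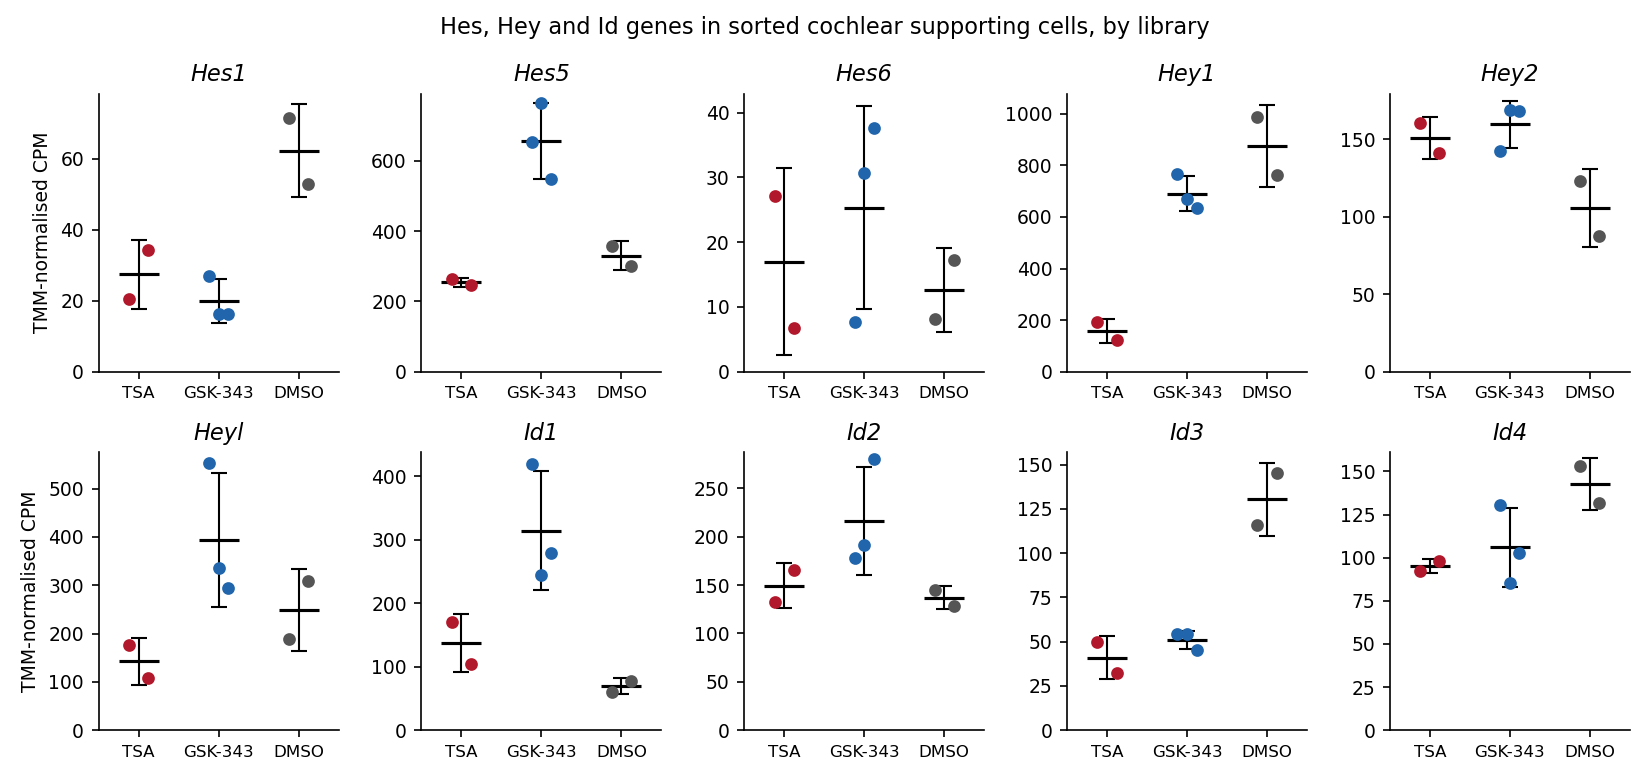
TMM-normalised CPM of each gene (vertical axis, a scale per panel starting at 0) in the TSA, GSK-343 and DMSO libraries; points are libraries, horizontal lines are means and bars are ± SD (n = 2, 3 and 2). Hey1 lies at 124 and 192 CPM with TSA, under every GSK-343 and DMSO library, and Id1 lies highest with GSK-343.

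The first comparison asks how the deacetylase inhibitor and the EZH2 inhibitor differ in their effect on these repressors. Of the 10 genes, 3 had lower levels with TSA than GSK-343 (Hey1, Hes5 and Heyl), none was higher (0 at an unadjusted p under 0.05 and 0 by DESeq2), and 7 did not pass the test at an adjusted p of 0.05 (edgeR quasi-likelihood F test, Benjamini-Hochberg over 14907 genes). Across all genes tested, 5.00% were lower and 4.56% higher by the same rule. The median log2 fold change of the 10 genes was −0.56, and that of all genes tested was 0.00. In CPM (TMM-normalised counts scaled to library size), 5 of the 10 genes were lower with TSA without overlap (Hes5, Hey1, Heyl, Id1 and Id2) and the other 5 overlapped. Of all genes tested, 22.9% were lower and 23.5% higher without overlap.

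Hey1 had the largest difference of the 10 in this comparison. It lies on chromosome 3 (8663359 to 8667256, minus strand, mm10) and encodes a repressor induced by Notch. Its values were 192 and 124 CPM with TSA, against 767, 671 and 635 CPM with GSK-343. All TSA libraries lay below all GSK-343 libraries. The TSA mean was 158 ± 48.1 CPM and the GSK-343 mean 691 ± 68.2 CPM (SD, n = 2 and 3), giving a log2 fold change of −2.13 ± 0.35 (SE; edgeR adjusted p = 0.00795). The call held with each of the 7 libraries left out in turn, where the log2 fold change ran from −2.48 to −1.87. With a trend on GC content and length removed it was −2.02 (adjusted p = 0.00621). On the TPM scale, log2(TPM + 1), it was −1.75 (limma adjusted p = 0.0468), or −1.76 with a pseudocount of 0.1 (limma adjusted p = 0.0653).

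Heyl, the third Hey gene and also a Notch target, was the next in size. It stood at 177 and 108 CPM with TSA, against 553, 336 and 295 CPM with GSK-343. The groups did not overlap, and GSK-343 replicate 1 lay well above the other two. The log2 fold change was −1.47 ± 0.40 (edgeR adjusted p = 0.0385). The call was lost without GSK-343 replicate 1 (adjusted p = 0.0504), GSK-343 replicate 2 (0.0591) or TSA replicate 2 (0.286), under total count scaling (0.0864) and on the TPM scale (limma, 0.208).

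Hes5 was at 263 and 246 CPM with TSA, against 653, 765 and 549 CPM with GSK-343. The TSA libraries lay close together and below all GSK-343 libraries. The log2 fold change was −1.37 ± 0.31 (edgeR adjusted p = 0.0221). The call was lost without TSA replicate 1 (adjusted p = 0.0559), TSA replicate 2 (0.149) or GSK-343 replicate 2 (0.0591). Removing the GC and length trend brought it to −0.62 (adjusted p = 0.326), and on the TPM scale it was −0.998 (limma adjusted p = 0.0972). Hes5, on chromosome 4 (154960923 to 154962371), has the GC-rich upstream stretch shown above, of which 71.6% was G or C. An antisense transcript, Gm20421, overlaps Hes5, and it had at most 6 counts in any library.

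Hey2, which has the other stretch shown above, was not called in this comparison. This Hey gene is known in the cochlea as a target of FGF signalling that keeps pillar cells, one type of supporting cell, from becoming hair cells. Its values were 160 and 141 CPM with TSA, against 142, 169 and 168 CPM with GSK-343. The groups overlapped and the log2 fold change was −0.08 ± 0.30 (edgeR adjusted p = 0.896). Its sign turned with total count scaling (0.16) and on the TPM scale (0.27), under both of which the median of all genes was itself at 0.20. No test of the difference between Hey2 and Hey1 was made.

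Hes1 and Hes6 were the weakly expressed Hes genes. Hes1 stood at 20.4 and 34.3 CPM with TSA, against 26.9, 16.3 and 16.2 CPM with GSK-343. These ranges overlapped (log2 fold change 0.47 ± 0.42, edgeR adjusted p = 0.506). Hes6 stood at 27.2 and 6.75 CPM with TSA, against 7.65, 30.7 and 37.7 CPM with GSK-343. Replicates of Hes6 differed more than the groups did (log2 fold change −0.58 ± 0.73, edgeR adjusted p = 0.648), and with single libraries left out the estimate ran from −1.91 to 0.08.

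Among the 4 Id genes none passed the edgeR test, and 1 did at an unadjusted p under 0.05. Id1, an Id gene widely read as a sign of BMP signalling, came closest, at 170.0 and 104 CPM with TSA, against 420 and 279 CPM in GSK-343 replicates 1 and 3 and 244 CPM in replicate 2. The TSA libraries lay below all GSK-343 libraries, with a log2 fold change of −1.20 ± 0.36 (edgeR adjusted p = 0.0554). A robust form of the same fit, chosen after seeing the data, gave an adjusted p of 0.0431 for Id1. DESeq2's Wald test gave 0.0213 and the fit with no low-count filter 0.0267. Removal of the GC and length trend gave −0.69 (adjusted p = 0.292), total count scaling −0.93 (0.132) and the TPM scale −0.87 (limma, 0.244). Id1 passed in 0 of the 7 fits with a library left out. Id2, an Id gene found in many progenitor cells, stood at 133 and 166 CPM with TSA, against 178, 191 and 280 CPM in the GSK-343 libraries; the log2 fold change was −0.54 ± 0.32 (edgeR adjusted p = 0.297). Id3 and Id4 overlapped between the groups, with log2 fold changes of −0.32 ± 0.34 and −0.16 ± 0.31 (edgeR adjusted p = 0.576 and 0.789).

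The sort could also hold hair cells, neurons and glia, and their markers differed between these 2 groups. By the edgeR rule, 4.56% of all genes tested were higher with TSA and 5.00% lower. The summed TPM of 8 neuron markers was 490 and 377 with TSA against 33.4 to 60.7 under GSK-343, and Rbfox3 was at 0 in TSA replicate 2. Of these 8, 3 were called higher with TSA (Stmn2, Map2 and Snap25) and 0 lower. Tubb3 (log2 fold change −0.09), Elavl4 (1.75) and Rbfox3 (0.96) were not called (edgeR adjusted p = 0.984, 0.260 and 0.667). The 6 glia markers summed to 126 and 85.4 TPM with TSA and to 167 to 306 TPM with GSK-343; Foxd3 was at 0 in TSA replicate 2 and GSK-343 replicates 1 and 2. The 8 hair cell markers summed to 1805 and 494 TPM with TSA and to 324 to 670 TPM with GSK-343. Supporting cell markers summed to 3240 and 1911 TPM with TSA and to 2753 to 3447 TPM with GSK-343. Of these 8, 1 (Sox10) was called lower, and 4, Sox10 among them, were lower at an unadjusted p under 0.05 (edgeR). Their log2 fold changes ran from −2.03 (Sox10) to −0.53 (Sox9). The median was −0.69, against −0.56 for the 10 genes and 0.00 for all genes tested. Mesenchyme, immune, endothelium and red blood cell markers each summed to under 50 TPM in every library, with several of them at 0. The part of other cell types in the differences above was not tested. In bulk RNA, fewer cells of a type and less RNA per cell cannot be told apart.

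The second comparison asks how TSA changed the repressors relative to the solvent. Of the 10 genes, 2 were lower with TSA than with DMSO (Hey1 and Id3) and 8 did not pass the edgeR test. No gene was called higher; Id1 was higher at an unadjusted p under 0.05 and by DESeq2's Wald test (adjusted p = 0.0440). Across all genes tested, 15.7% were lower and 12.8% higher, so the share of 2 in 10 lies near the background. The median log2 fold change of the 10 genes was −0.48, against −0.05 for all genes tested. In CPM, 6 genes were lower and 2 higher without overlap, against 35.6% and 33.0% of all genes tested.

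Hey1 stood at 192 and 124 CPM with TSA, against 986 and 763 CPM in DMSO. Both TSA libraries were below both DMSO libraries, with means of 158 ± 48.1 CPM for TSA and 875 ± 158 CPM for DMSO (SD, n = 2 each). The log2 fold change was −2.47 ± 0.37 (edgeR adjusted p = 9.29e-04), and it was called with each of the 7 libraries left out. On the TPM scale it was −1.33 (limma adjusted p = 0.0316). All genes had a median of 0.75 on that scale, and relative to it Hey1 was at −2.07.

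Id3, an Id gene that responds to BMP as Id1 does, stood at 49.6 and 32.3 CPM with TSA, against 116 and 145 CPM in DMSO. The groups did not overlap in CPM, and the log2 fold change was −1.67 ± 0.38 (edgeR adjusted p = 0.00767). In TPM they overlapped, at 129 and 76.1 TPM with TSA and 108 and 121 TPM in DMSO, with a log2 fold change of −0.20 (limma adjusted p = 0.663), or −0.95 relative to the median of all genes. Without TSA replicate 2 the adjusted p was 0.0991, and with total count scaling it was 0.0787.

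Of the genes that did not pass the test, Hes1, Hes5, Heyl and Id4 were lower and Hey2 and Id1 higher in CPM without overlap. Hes1 and Id1 came closest to passing. Hes1 was at 20.4 and 34.3 CPM with TSA, against 71.4 and 52.9 CPM in DMSO (log2 fold change −1.18 ± 0.47, edgeR adjusted p = 0.0746). Id1 was at 170.0 and 104 CPM with TSA, against 60.6 and 78.2 CPM in DMSO (log2 fold change 0.98 ± 0.39, edgeR adjusted p = 0.0738). Both passed when GSK-343 replicate 1 was left out of the shared fit (adjusted p = 0.0453 for Hes1 and 0.0331 for Id1). This was the only 1 of the 7 leave-out fits in which either passed. Over those fits the log2 fold change ran from −1.57 to −0.81 for Hes1 and from 0.64 to 1.33 for Id1. On the TPM scale Hes1 changed sign (0.09), although relative to the median of all genes it was at −0.66. For the other 6 genes the log2 fold change lay between −0.80 (Heyl) and 0.52 (Hey2), with adjusted p of 0.166 or more. On the TPM scale, Hey2, Id1 and Id2 were called higher at 1.71, 2.29 and 1.42, or 0.96, 1.54 and 0.67 relative to the median of all genes. Hes5, Heyl and Id4 changed sign on that scale, but relative to the median of all genes only Hes5 did (0.18), with Heyl at −0.55 and Id4 at −0.08. With total count scaling, which put the median of all genes at 0.65, Hey2 and Id1 were called higher and Hey1 lower.

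Cell type markers differed here too. Of 8 supporting cell markers, 5 were called lower with TSA than with DMSO and none higher (0 at an unadjusted p under 0.05 and 0 by DESeq2), and of 8 hair cell markers 7 were called higher. Neuron markers summed to 490 and 377 TPM with TSA and to 52.9 and 25.1 TPM in DMSO, where Nefl was at 0 in replicate 2. Of these 8 markers, 4 were called higher (Snap25, Stmn2, Nefl and Map2) and 0 lower. Tubb3 (log2 fold change −0.50), Elavl4 (0.39) and Rbfox3 (−0.34) were not called (edgeR adjusted p = 0.784, 0.809 and 0.873). With GSK-343, 3 supporting cell markers were lower and 5 hair cell markers higher than with DMSO, and glia markers summed to 306, 167 and 246 TPM with GSK-343 against 43.1 and 48.9 TPM in DMSO. Their part in the comparisons with DMSO was not tested.

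The third comparison asks the same of GSK-343. Of the 10 genes, 2 were higher with GSK-343 than with DMSO (Id1 and Hes5), 2 were lower (Hes1 and Id3) and 6 did not pass. Across all genes tested, 17.7% were higher and 21.3% lower, so these shares too lie near the background. With total count scaling 5 genes were higher and 1 lower, and on the TPM scale 4 were higher and 0 lower (limma). The median log2 fold change of the 10 genes was 0.63, against −0.04 for all genes tested. In CPM, 4 genes were higher and 3 lower without overlap, against 28.6% and 32.1% of all genes tested.

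Id1 had the largest difference, at 420, 244 and 279 CPM with GSK-343 against 60.6 and 78.2 CPM in DMSO. All 3 GSK-343 libraries were above both DMSO libraries, with means of 314 ± 93.1 CPM for GSK-343 and 69.4 ± 12.4 CPM for DMSO (SD, n = 3 and 2). The log2 fold change was 2.18 ± 0.38 (edgeR adjusted p = 0.00115), called with each of the 7 libraries left out and at 1.68 (adjusted p = 0.00866) with the GC and length trend removed. Id3 moved the other way, at 54.1, 54.0 and 45.3 CPM with GSK-343 against 116 and 145 CPM in DMSO. Its log2 fold change was −1.35 ± 0.33 (edgeR adjusted p = 0.00668). The Id3 call was lost without DMSO replicate 2 (adjusted p = 0.0602), with total count scaling (0.0581) and on the TPM scale (−0.22, limma adjusted p = 0.624; −0.56 relative to the median of all genes).

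Hes5 was at 653, 765 and 549 CPM with GSK-343, against 359 and 300.3 CPM in DMSO. The groups did not overlap, and the log2 fold change was 0.99 ± 0.31 (edgeR adjusted p = 0.0225). The call was lost without DMSO replicate 1 (adjusted p = 0.0678), DMSO replicate 2 (0.141) or GSK-343 replicate 2 (0.0666), and with the GC and length trend removed the estimate was 0.36 (adjusted p = 0.481). Hes1, the other Hes gene called, was at 26.9, 16.3 and 16.2 CPM with GSK-343, against 71.4 and 52.9 CPM in DMSO. All GSK-343 libraries were lower, with a log2 fold change of −1.65 ± 0.42 (edgeR adjusted p = 0.00808). The Hes1 call was lost without DMSO replicate 1 (log2 fold change −1.38). On the TPM scale its estimate was −0.67 (limma adjusted p = 0.241), or −1.02 relative to the median of all genes. With the GC and length trend removed it was −2.44 (edgeR adjusted p = 0.00466).

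Hey1, which separated TSA from both other groups, was at 767, 671 and 635 CPM with GSK-343 against 986 and 763 CPM in DMSO. These values overlapped, and the log2 fold change was −0.34 ± 0.31 (edgeR adjusted p = 0.414). With the GC and length trend removed it was −0.93 (adjusted p = 0.0240), and its sign turned with total count scaling (0.13) and on the TPM scale (0.43). The median of all genes was at 0.42 and 0.35 under those 2 scalings, and relative to it Hey1 was at −0.29 and 0.08, against −0.30 with TMM. Hey2 was at 142, 169 and 168 CPM with GSK-343 against 123 and 87.6 CPM in DMSO (log2 fold change 0.60 ± 0.31, edgeR adjusted p = 0.139). It was called higher with the GC and length trend removed (1.54, adjusted p = 0.00365), with total count scaling (1.07, adjusted p = 0.0177) and on the TPM scale (1.44, limma adjusted p = 0.00985). Relative to the median of all genes these 3 values were 1.42, 0.65 and 1.09, against 0.64 with TMM. Hes6, Heyl, Id2 and Id4 had log2 fold changes between −0.43 (Id4) and 1.01 (Hes6), with adjusted p of 0.118 or more. Id2 was called higher with total count scaling (1.12, adjusted p = 0.0137) and on the TPM scale (1.58, limma adjusted p = 0.00402), and Heyl with total count scaling (1.13, adjusted p = 0.0441). Relative to the median of all genes, total count scaling put Id2 at 0.70 and Heyl at 0.71, as TMM did, and the TPM scale put Id2 at 1.23.

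**Figure D2:**
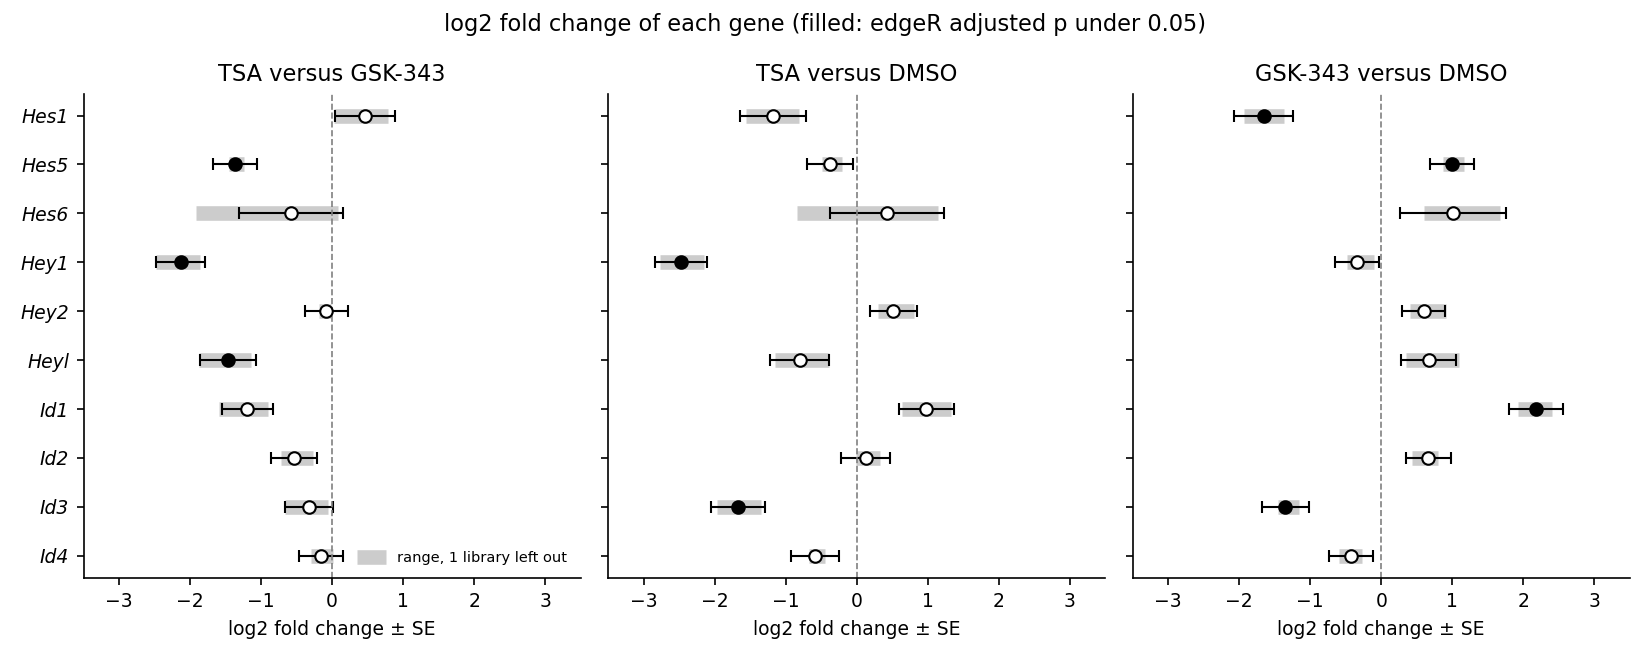
Log2 fold change of each gene (horizontal axis, ± SE) in the 3 comparisons; filled points have an edgeR adjusted p under 0.05 and grey bars span the estimates with 1 of 7 libraries left out. Hey1 sits at −2.13 and −2.47 in the TSA comparisons and at −0.34 between GSK-343 and DMSO.

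Ratios between genes within a library do not depend on how libraries are scaled to each other, though they do depend on read layout. They are given as a description, and no test was run on them. The TPM of Hey1 over that of Hes5 was 0.366 and 0.253 with TSA, 0.568, 0.428 and 0.565 under GSK-343, and 1.52 and 1.40 in DMSO. No library of a group reached the range of another, and TSA was lowest. The TPM of Hes1 over Hes5 was 0.0695 and 0.117 with TSA, 0.0384, 0.0180 and 0.0258 under GSK-343, and 0.171 and 0.152 in DMSO. Here GSK-343 was lowest, again without overlap. The TPM of Id1 over Id3, both BMP-responsive, was 4.30 and 3.72 with TSA, 10.5, 5.39 and 7.10 under GSK-343, and 0.692 and 0.709 in DMSO. Id1 was thus above Id3 in all 5 inhibitor libraries and below it in both DMSO libraries. For Hes6 over Hes5 the 3 groups overlapped.

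**Figure D3:**
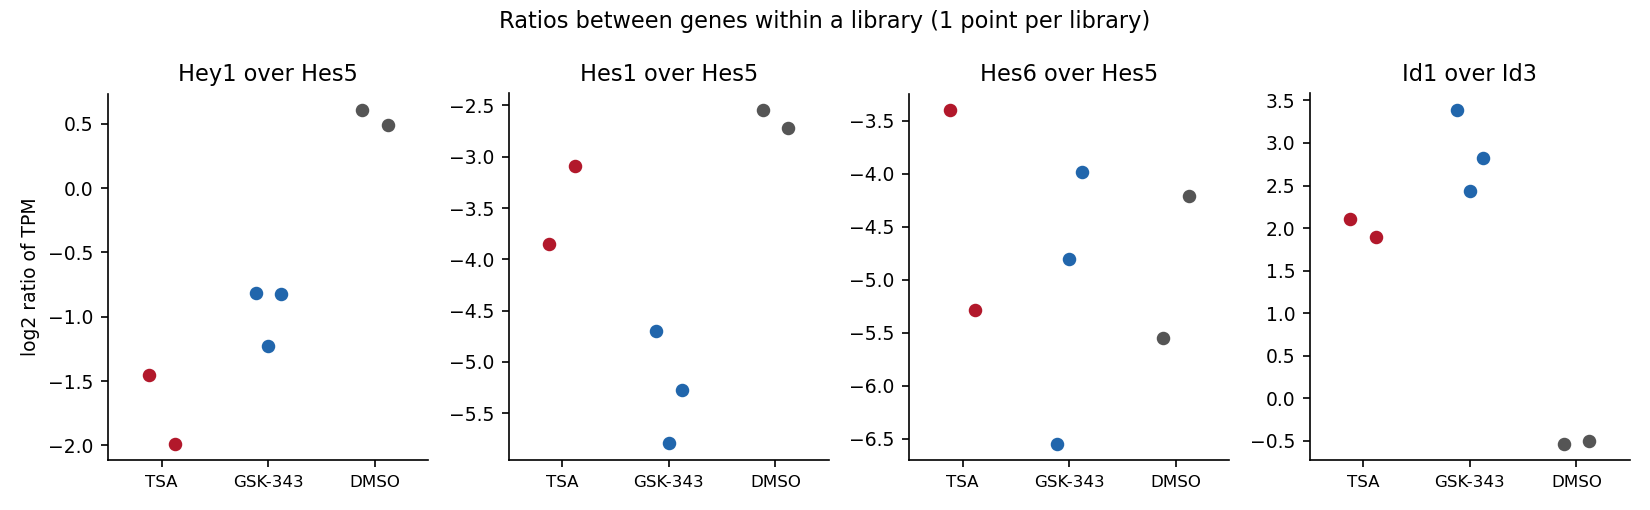
Log2 ratio of TPM between 2 genes of the same library (vertical axis, a scale per panel), 1 point per library. For Hey1 over Hes5, Hes1 over Hes5 and Id1 over Id3 the groups occupy separate ranges, and for Hes6 over Hes5 they overlap.

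Summed over the 6 Hes and Hey genes, the level was 1222 and 856 TPM with TSA, 2312, 2154 and 1645 TPM with GSK-343, and 1009 and 759 TPM in DMSO. Sums with TSA and in DMSO overlapped, and those with GSK-343 lay above both. These sums, and those of the Id genes below, are not set relative to the median of all genes. On log2(TPM + 1) that median stood at 0.75 for TSA versus DMSO and at 0.35 for GSK-343 versus DMSO. Hes5 made up 50.6% and 56.7% of the sum with TSA, 52.0% to 59.2% with GSK-343, and 32.8% and 32.7% in DMSO. Hey1 made up 18.5% and 14.3% with TSA, 25.3% to 29.5% with GSK-343, and 49.8% and 45.9% in DMSO. Hey2 held 14.0% and 14.7% with TSA, 5.14% to 7.18% with GSK-343, and 5.50% and 4.65% in DMSO. The 4 Id genes summed to 1152 and 826 TPM with TSA, 1707, 1105 and 1235 TPM with GSK-343, and 423 and 395 TPM in DMSO. Id1 was 47.9% and 34.3% of the Id sum with TSA, 48.6% to 64.3% with GSK-343, and 17.6% and 21.7% in DMSO. Id3 was 11.2% and 9.22% with TSA, 6.15% to 9.65% with GSK-343, and 25.4% and 30.7% in DMSO.

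**Figure D4:**
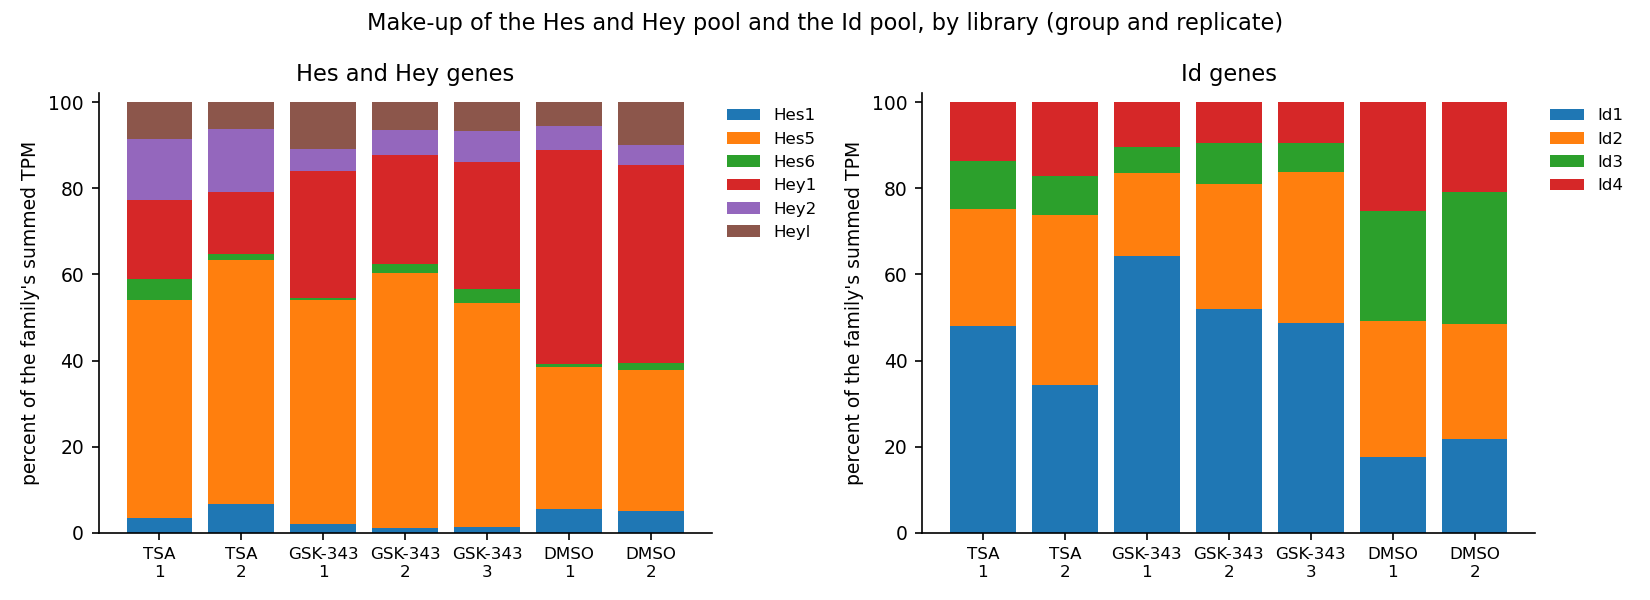
Percent of the summed TPM of the Hes and Hey genes (left) and of the Id genes (right) held by each gene (vertical axis, stacked from 0), 1 bar per library of TSA, GSK-343 and DMSO. Hey1 holds 18.5% and 14.3% of the first sum with TSA and 49.8% and 45.9% in DMSO.

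The pathways that feed these genes were read from the same fit. Of 9 Notch receptors and ligands, 7 were tested; between TSA and GSK-343, 1 was lower (Notch3) and none higher (edgeR; 0 at an unadjusted p under 0.05, 0 by DESeq2), and their median was −0.45 against 0.00 for all genes. Notch3 is a receptor that is itself a Notch target, at 57.4 and 38.7 CPM with TSA against 123, 115 and 110.1 CPM under GSK-343 (log2 fold change −1.27 ± 0.34, edgeR adjusted p = 0.0359). Of 20 modulators and processing factors, 4 were lower and 1 higher, with a median of −0.66. Among the lower ones were genes for subunits of γ-secretase, the protease that frees the Notch domain: Ncstn (log2 fold change −1.62) and Psen2 (−1.69). Dtx1, which ubiquitinates Notch receptors, was higher (3.14 ± 0.79, edgeR adjusted p = 0.0327). Of 14 nuclear factors of the pathway, 1 was lower (Nrarp) and 1 higher (Kdm5a), with a median of −0.30. Nrarp, a Notch target that limits Notch signalling, had 13.7 CPM in TSA replicate 1 and no count in replicate 2, against 31.4, 165 and 89.5 CPM with GSK-343 (edgeR adjusted p = 0.0401; DESeq2 adjusted p = 0.137). Without TSA replicate 2 the adjusted p was 0.350 for Notch3, 0.138 for Ncstn, 0.246 for Psen2, 0.210 for Dtx1 and 0.0756 for Nrarp. Leaving out TSA replicate 1 also ended the calls of Notch3 (adjusted p = 0.0557), Ncstn (0.0607), Psen2 (0.106) and Dtx1 (0.0725). Leaving out GSK-343 replicate 2 ended those of Notch3 (0.0739), Ncstn (0.0516), Psen2 (0.0748) and Nrarp (0.0963), and GSK-343 replicate 3 those of Notch3 (0.0757), Dtx1 (0.0894) and Nrarp (0.0564). Psen2 was also lost without GSK-343 replicate 1 (0.0706). With total count scaling the calls of Notch3 (0.0852), Psen2 (0.0752) and Nrarp (0.0677) were lost.

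Against DMSO the same lists had members in both directions. With TSA, 3 receptors and ligands were higher and 3 lower, 2 modulators higher and 3 lower, and 2 nuclear factors lower. With GSK-343, 2 receptors and ligands were higher and 2 lower, 2 modulators higher and 2 lower, and 5 nuclear factors lower. Jag1, a ligand carried by supporting cells, was lower in both, at 311 and 391 CPM with TSA and 643, 501 and 434 CPM with GSK-343, against 1549 and 1009 CPM in DMSO. Its log2 fold change was −1.86 ± 0.37 with TSA (edgeR adjusted p = 0.00434) and −1.28 ± 0.32 with GSK-343 (edgeR adjusted p = 0.00837). The second call was lost without DMSO replicate 1 (adjusted p = 0.119), with total count scaling (0.0589) and with the GC and length trend removed (0.107).

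Of 20 BMP ligands and antagonists, 14 were tested; between TSA and GSK-343, 2 were higher (Bmp2 and Bmper) and none lower (edgeR; 1 at an unadjusted p under 0.05, 0 by DESeq2), with a median of 0.33. Bmp2, a BMP ligand, was at 43.1 and 34.6 CPM with TSA against 10.8, 15.1 and 11.3 CPM under GSK-343 (log2 fold change 1.65 ± 0.44, edgeR adjusted p = 0.0363). Bmper, a secreted BMP-binding protein, had 31 and 33 counts with TSA against 1, 3 and 6 counts with GSK-343 (edgeR adjusted p = 0.0390). None of the 15 tested BMP receptors and Smads was called by edgeR (1 lower at an unadjusted p under 0.05, 0 by DESeq2), with a median of 0.06. Of 8 tested BMP targets other than the Id genes, 1 was lower (Gata3) and none higher (edgeR; 0 at an unadjusted p under 0.05, 0 by DESeq2). Gata3, a transcription factor of the prosensory domain, was at 425 and 201 CPM with TSA against 780, 760 and 766 CPM under GSK-343 (log2 fold change −1.30 ± 0.36, edgeR adjusted p = 0.0424). Without TSA replicate 2 the adjusted p was 0.136 for Bmp2, 0.418 for Bmper and 0.360 for Gata3. Bmp2 was also lost without TSA replicate 1 (0.147) and when GSK-343 replicate 2 (0.0653) or its replicate 3 (0.0939) was left out. Bmper was lost without TSA replicate 1 (0.226) or any 1 GSK-343 library (0.0612, 0.0939 and 0.0608), and Gata3 without GSK-343 replicate 2 (0.0811) or 3 (0.0892) or either DMSO library (0.0605 and 0.0575). Gata3 was also lost with total count scaling (0.109).

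Against DMSO, 6 BMP ligands and antagonists were higher and 1 lower with TSA, and 1 was higher and 2 lower with GSK-343. BMP targets other than the Id genes had 2 higher and 2 lower with TSA, and 1 higher and 1 lower with GSK-343. Receptors and Smads had 1 higher and 3 lower with TSA, and 1 higher and 6 lower with GSK-343. Smad6, an inhibitory Smad induced by BMP signalling, was lower with both agents: 10.4 and 4.69 CPM with TSA and 19.5, 11.4 and 10.9 CPM with GSK-343, against 50.3 and 31.3 CPM in DMSO. Its log2 fold change was −2.43 ± 0.61 with TSA (edgeR adjusted p = 0.0124) and −1.55 ± 0.52 with GSK-343 (edgeR adjusted p = 0.0315). Both calls were lost without DMSO replicate 1 (adjusted p = 0.0748 and 0.210) and with total count scaling (0.0577 and 0.133). The TSA call was also lost without TSA replicate 2 (0.110), and the GSK-343 call without GSK-343 replicate 2 (0.0903) or 3 (0.0946).

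The partners and the target of these repressors were also measured. None of the 3 E proteins passed the edgeR test or DESeq2's between TSA and GSK-343 (1 at an unadjusted p under 0.05) or between GSK-343 and DMSO (0), and 1 (Tcf3) was lower with TSA than with DMSO. Of 14 proneural factors, 2 passed the filter on low counts, Atoh1 and Nhlh1. Atoh1 stood at 45.4 and 12.3 CPM with TSA and 35.1, 38.7 and 39.3 CPM with GSK-343, against 5.62 and 6.26 CPM in DMSO. The TSA libraries straddled the GSK-343 libraries (log2 fold change −0.39 ± 0.52, edgeR adjusted p = 0.673), while all inhibitor libraries were above DMSO. Against DMSO the log2 fold change of Atoh1 was 2.28 ± 0.61 with TSA (edgeR adjusted p = 0.0160) and 2.66 ± 0.59 with GSK-343 (edgeR adjusted p = 0.00403). The TSA call was lost without TSA replicate 1 (1.10, adjusted p = 0.288) and without either DMSO library (adjusted p = 0.0756 and 0.0561). The summed TPM of 8 hair cell markers, Atoh1 among them, was 1805 and 494 with TSA, 571, 324 and 670 under GSK-343, and 115 and 76.1 in DMSO, where Pvalb was at 0 in replicate 2. The part of hair cells in the sort in these differences was not tested. Of 6 further Hes-related repressors, 2 were tested, and Bhlhe40 was lower with TSA than with GSK-343, at 7.84 and 11.1 CPM under TSA against 26.9, 35.3 and 56.4 CPM under GSK-343 (log2 fold change −2.06 ± 0.53, edgeR adjusted p = 0.0330). The Bhlhe40 call was lost without either TSA library (adjusted p = 0.142 and 0.140) and without GSK-343 replicates 2 or 3 (0.0699 and 0.137).

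Genes whose pattern over the 7 libraries was nearest to each member were found among 5871 genes by the root mean square difference of log2 CPM, each centred on its own mean. For Hey1 the nearest was Mpzl2 (0.163), and for Hes5 it was Cpsf1 (0.147), followed by Psmc3 (0.155). Hes1 lay nearest to Ubr3 (0.0752), the closest match for any member, and Id1 to Dnajc11 (0.0962). Id4 lay nearest to Cacul1 (0.0981), Heyl to Rbm10 (0.129), Hey2 to 1110004F10Rik (0.131), Id2 to Srpr (0.140) and Id3 to Srek1 (0.142). None of the 10 was the nearest gene of another.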

How the data were processed

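RNA was measured in 7 libraries of sorted cochlear supporting cells, made with a kit for small inputs, per the labels' protocols. Reads were aligned with STAR and quantified with RSEM on mm10, with DESeq2 also named, according to the submitters' processing notes. The expected counts deposited by the authors are RSEM estimates per gene, not scaled between libraries, and the TPM deposited by the authors divide by effective length, per the file headers. Of 48709 gene IDs, 48349 were paired with a GENCODE M21 symbol, without the version suffix.

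Expected counts were rounded and fitted with edgeR 4.0.16 (R 4.3.3; filterByExpr, TMM, 1 quasi-likelihood fit of all 7 libraries, 4 residual degrees of freedom, 14907 genes, Benjamini-Hochberg threshold 0.05). TMM factors were 1.32 and 1.16 for TSA, 1.04, 1.08 and 1.02 for GSK-343, and 0.754 and 0.760 for DMSO. SE was derived by dividing the size of the log2 fold change by √F. Before TMM scaling, 3 counts equal 0.502 to 1.10 CPM, a floor for counting error only. limma 3.58.1 was run on log2(TPM + 1), where fold changes of low genes are understated, and DESeq2 1.42.0 as another test. Replicates were checked for duplicates (chi-square per degree of freedom 15.83 to 47.18), and the fit was tested on simulated data. Results were recomputed with scaling by total count or by DESeq2 size factors, with no filter or a minimum of 50 counts (2 libraries), with a fit to each pair of groups alone, the replicate block, each library left out, a GC and length trend removed, nuclear protein-coding genes only, a pseudocount of 0.1, a threshold of 0.01 and, chosen after seeing the data, a robust fit. Genes named are the 10 members, up to 4 genes per pathway list by smallest p, of which some are described, the nearest patterns and fixed markers. The 10 genes, the lists and the tests were chosen with earlier results of these data known. Some genes that this rule names are not reported here.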

Additional observations from a re-analysis of the deposited data

How the results depend on the processing

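Over the alternatives run on the 10 genes, 485 of 570 values kept their direction and side of the threshold, 28 lost a call, 24 gained one and 33 changed sign. For TSA versus GSK-343, 3 genes were called, against 1 with limma on log2(TPM + 1), 0 with limma on log2(TPM + 0.1), 1 at a threshold of 0.01, and 1 to 3 with a library left out (1 without GSK-343 replicate 2 or TSA replicate 2). For TSA versus DMSO, 2 were called, against 4 with either limma fit and 1 to 4 with a library left out (1 without TSA replicate 2, 4 without GSK-343 replicate 1). For GSK-343 versus DMSO, 4 were called, 2 higher and 2 lower, against 5 higher and 1 lower with total count scaling, 4 higher and 0 lower with either limma fit, and 2 to 4 in all with a library left out (2 without either DMSO library). The cause of these changes was not tested.

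Signs turned as follows for TSA versus GSK-343: Hes6 with the replicate block (0.0737) and with the GC and length trend removed (0.180), and between −1.91 and 0.0803 with a library left out; Hey2 with total count scaling (0.163), with the filter of 50 counts (0.0451) and with limma (0.271 and 0.273). Id3 turned with the trend removed (0.210) and with limma (0.0106 and 0.0103). Id4 turned with total count scaling (0.0820), with limma (0.215 and 0.216) and between −0.294 and 0.0154 with a library left out. Atoh1 ran from −1.62 to 0.249 with a library left out. For TSA versus DMSO, limma turned Hes1 (0.0921 and 0.0941), Hes5 (0.931 and 0.933), Heyl (0.196 and 0.198) and Id4 (0.665 and 0.670), and total count scaling turned Hes5 (0.337) and Id4 (0.121). Left-out libraries put Hes6 between −0.846 and 1.15 and Id2 between −0.00293 and 0.328. For GSK-343 versus DMSO, Hey1 turned with total count scaling (0.128) and limma (0.430 in both), and Id4 with total count scaling (0.0386), the trend removed (0.210) and limma (0.450 and 0.454). Total count scaling moved the median of all genes to 0.200, 0.650 and 0.421 in these 3 comparisons, and limma on TPM to 0.204, 0.748 and 0.349. The causes were not tested.

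Whether replicate numbers pair libraries could not be settled. Deviations from the group mean correlated at −0.0936 to 0.0395 between same-number libraries and at −0.0918 to 0.0936 between different-number libraries. In a group of 2 the deviations mirror each other, so few of these values are independent. With the number as a block, 3, 2 and 4 of the 10 genes were called in the 3 comparisons, as without it. Among the pathway genes the block ended the calls for TSA versus GSK-343 of Notch3 (adjusted p = 0.0741), Dtx1 (0.0671), Bmp2 (0.103), Bmper (0.112) and Bhlhe40 (0.117), and that of Smad6 for GSK-343 versus DMSO (0.0976). With limma on log2(TPM + 1), calls were lost for TSA versus GSK-343 by Notch3 (0.203), Nrarp (0.0962), Psen2 (0.223), Ncstn (0.0610), Bmp2 (0.0552), Gata3 (0.183) and Bhlhe40 (0.0873), and against DMSO by Jag1 (0.0590 for TSA and 0.0749 for GSK-343) and Smad6 (0.238 and 0.305). Over all genes, TSA versus GSK-343 gave 680 higher and 745 lower, but 328 and 513 with the block, 947 and 378 with total count scaling, 272 and 343 after leaving out GSK-343 replicate 2, 280 and 319 after leaving out its replicate 3, and 89 and 70 without TSA replicate 2. Total count scaling gave 3782 and 1292 for TSA versus DMSO and 3870 and 2263 for GSK-343 versus DMSO.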
